A study of Mus musculus with 2 samples.

Results

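Cytochrome P450 families 1 to 3 were followed in liver of mice with and without adiponectin, a hormone released by fat cells. The genes were taken by symbol, as every row whose symbol began with Cyp, a family digit from 1 to 3, a subfamily letter and a further digit, without pseudogenes marked -ps. This gave 42 of 13326 genes, in the subfamilies Cyp1a, Cyp2a to Cyp2f, Cyp2j, Cyp2r, Cyp2u and Cyp3a. One group consisted of male Adipoq-/- mice, which lack the adiponectin gene, and the other of male WT mice. Both were on the C57BL/6J strain, 12 weeks old and fasted overnight. RNA from 9 to 10 livers was pooled into 1 library per genotype, so the difference between single mice was not measured and no test across samples was possible. No difference below has a replicate check.

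Cytochrome P450 enzymes are heme proteins, most of them in the endoplasmic reticulum, that insert oxygen into lipophilic substrates. Families 1 to 3 handle most drugs, plant toxins and pollutants, and also steroids, retinoids, bile acids and polyunsaturated fatty acids. In liver their transcription is set by ligand-activated receptors, chiefly the aryl hydrocarbon receptor (AHR) for family 1, the constitutive androstane receptor (CAR) for Cyp2b and several Cyp2c genes, and the pregnane X receptor (PXR) for Cyp3a. Growth hormone adds differences between the sexes, and many members are expressed mainly in hepatocytes around the central vein.

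Expression was deposited as FPKM, a fragment count scaled to transcript length and library size, which allows levels to be compared between genes. The genotypes were compared as log2((Adipoq-/- FPKM + 1) / (WT FPKM + 1)), a scale that understates the difference of genes with low values. The median of this log2 ratio over the 11985 genes that reached 1 FPKM in either library was -0.15. Ratios called relative are taken after subtraction of that median. A gene counted as lower or higher when its relative log2 ratio reached 1.5-fold. The read depth behind the values is unknown, and the sum of all FPKM was 891964 in the Adipoq-/- library and 798170 in the WT library. The 34 genes with a Mup symbol, which encode major urinary proteins, held 17.0% of that sum in the Adipoq-/- library and 10.1% in the WT library. The libraries had the profile of liver, with albumin (Alb) at 14031 FPKM in the Adipoq-/- library and 17522 FPKM in the WT library, and each of the 8 hepatocyte markers was measured. All 9 measured Kupffer cell markers lay above the all-gene median, and their FPKM summed to 299.7 in the Adipoq-/- library and 248 in the WT library. Much of that gap lay in Lyz2, at 116 FPKM in the Adipoq-/- library and 72.5 FPKM in the WT library. On FPKM as deposited 7 of the 9 were higher and 2, Clec4f and Cd5l, were lower. After scaling to equal sums 4 of the 9 had ratios below 0. The adipocyte marker Cfd stood at 2.01 FPKM in the Adipoq-/- library and 13.3 FPKM in the WT library, and the other 4 adipocyte markers were not analysed here. Of 3 measured cholangiocyte markers, Spp1 had the highest relative log2 ratio (0.76). Of 2 measured pancreatic acinar markers, Cela1 had 56.9 FPKM in the Adipoq-/- library and 28.5 FPKM in the WT library. The other, Amy2a5, had 0.822 FPKM in the Adipoq-/- library and 1.25 FPKM in the WT library. The part of other cell types in the P450 values was not tested, and fewer cells of a type cannot be told apart from less RNA per cell.

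The P450 genes ranged in level from 0.693 to 3813 FPKM, and the bulk of the transcripts came from a few of them. Levels of at least 100 FPKM in at least 1 library were reached by 26 members, 11 lay between 10 and 100 FPKM, and 5 were under 10 FPKM. Cyp2e1, which oxidises ethanol and acetaminophen, was the most abundant member with 3264 FPKM in the Adipoq-/- library and 3813 FPKM in the WT library. Cyp3a11, the main mouse counterpart of the human drug-metabolising enzyme CYP3A4, ranked next with 1713 FPKM in the Adipoq-/- library and 2329 FPKM in the WT library. Cyp2c29, an arachidonic acid epoxygenase, followed at 617 FPKM in the Adipoq-/- library and 792 FPKM in the WT library. Cyp2d9, a steroid hydroxylase typical of male mouse liver, took the next place at 598 FPKM in the Adipoq-/- library and 595 FPKM in the WT library. These 4 genes made up 57.5% of the summed FPKM of the 42 members in the Adipoq-/- library and 59.4% in the WT library, and they held ranks 1 to 4 in both. The sum over all members came to 10763 FPKM in the Adipoq-/- library and 12666 FPKM in the WT library, or 1.21% and 1.59% of all FPKM. The log2 ratio of these sums, taken without a pseudocount, was -0.23, and -0.05 after subtraction of the all-gene median without a pseudocount, which was -0.18.

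**Figure D1:**
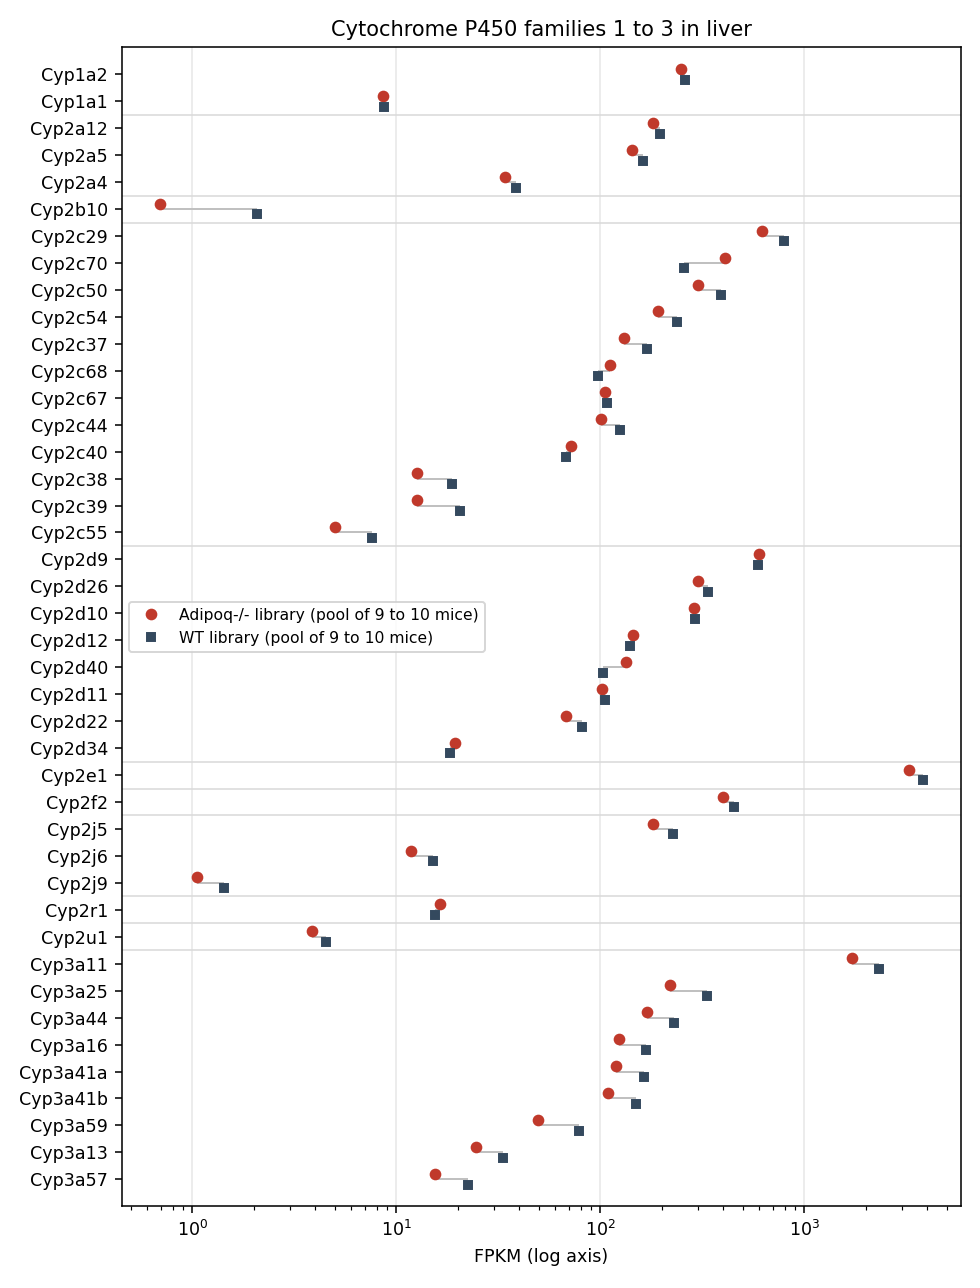
FPKM of the 42 genes on a log axis, 1 gene per row, grouped by subfamily, with the Adipoq-/- library as circles and the WT library as squares (1 pooled library each, no error bars). The circles lie left of the squares for all 9 Cyp3a genes, whereas Cyp2c70 is at 406 FPKM in the Adipoq-/- library and 258 FPKM in the WT library.

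Most members differed little between the genotypes, and the direction was more often down than up. The median relative log2 ratio of the 42 members, all of which passed the minimum of 1 FPKM, was -0.10, against 0 by construction for all genes. Of the 42 members, 28 (66.7%) had ratios under the all-gene median, which by construction splits all genes at 50%. This count depended on members close to the median. With a pseudocount of 0.1 FPKM in place of 1 FPKM, 24 members were below it and 18 above. On FPKM as deposited, 34 of 42 members were lower in the Adipoq-/- library, where 66.9% of all genes were. Past 1.5-fold, 1 member was lower, against 2.61% of all genes, and 1 member was higher, against 6.73% of all genes. Both directions together gave 2 of 42 members, against 9.34% of all genes. No member was 2-fold lower (0.476% of all genes) or 2-fold higher (0.884%; 1.36% in either direction). On the centred scale the lower gene was Cyp2b10 and the higher gene was Cyp2c70. Without subtraction of the all-gene median, 4 members were lower (6.17% of all genes) and 1 was higher (3.23%). After scaling both libraries to equal sums, 11 were lower (12.5% of all genes) and none was higher (1.52%). Scaling to equal sums without the Mup genes gave 4 lower (7.63% of all genes) and 1 higher (2.65%). The share of members called lower was thus under the background on the centred scale and above it on these other 3 scales, most of all with equal sums.

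Abundant genes tended to higher ratios than rare ones, more so among all genes than among the members. For the 1018 genes averaging 100 FPKM or more, the median relative log2 ratio was 0.26, and 27.9% lay below the all-gene median. The 26 members above that level had a median of -0.05, and 16 of them (61.5%) lay below the all-gene median. Of these 1018 genes, 18.4% were at least 1.5-fold higher and 1.08% at least 1.5-fold lower, against 1 and 0 of the 26 members. At an average of 10 FPKM or more, 1 of 37 members was higher past 1.5-fold, against 9.6% of genes at that level, and none was lower, against 1.92%. The ratio also went down with transcript length across genes (Spearman rho -0.44, a description across genes that share both libraries). The members' transcripts had a median length of 1876.5 bases, against 2449 bases for all genes, and correction for length left a member median of -0.08.

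**Figure D2:**
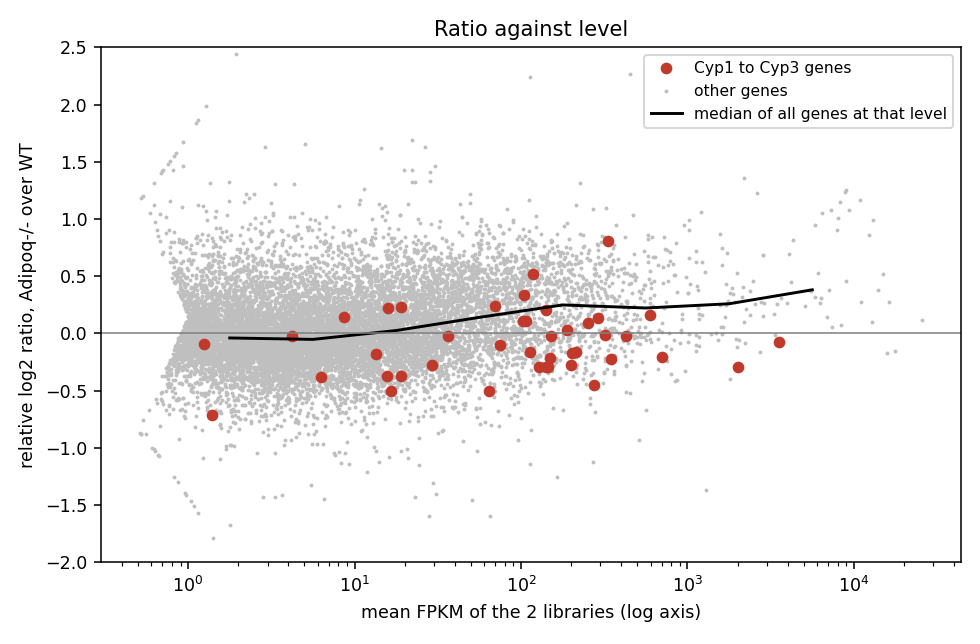
Relative log2 ratio (Adipoq-/- over WT) against the mean FPKM of both libraries on a log axis, for the 42 members (large points) and all other genes passing 1 FPKM (small points), with the median of all genes in level bins as a line. Of all genes, 14 lie outside the plotted range. Members averaging 100 FPKM or more have a median of -0.05 while all genes at that level have a median of 0.26.

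**Figure D3:**
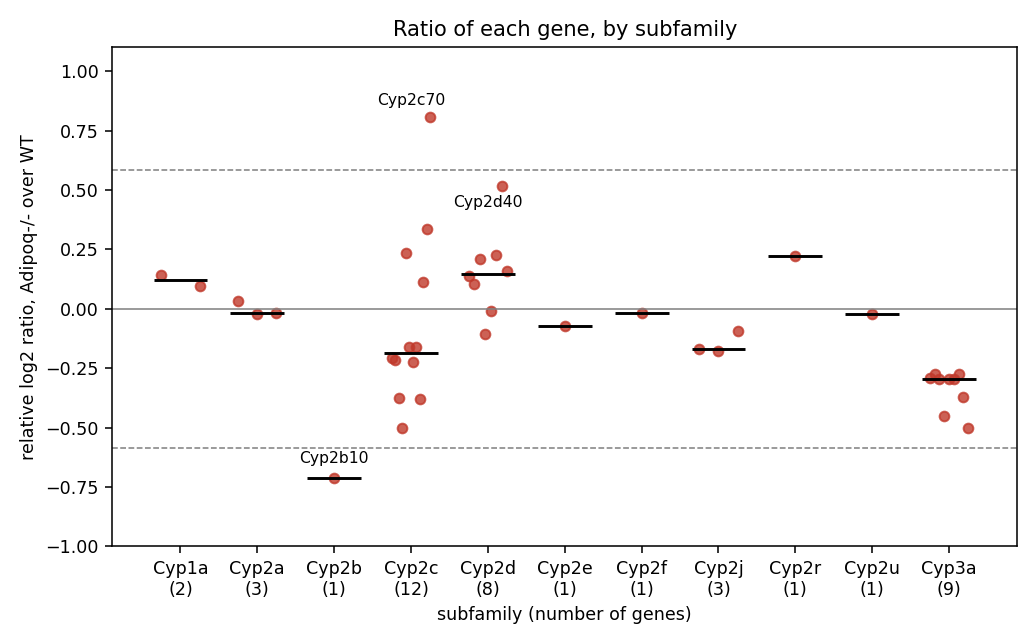
Relative log2 ratio (Adipoq-/- over WT) of each member by subfamily, with the subfamily median as a bar and dashed lines at 1.5-fold. All 9 Cyp3a genes lie below 0 and Cyp2c genes range from -0.50 to 0.81; 6 of 8 Cyp2d genes lie above 0, though 7 of 8 lie below it after scaling to equal sums.

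In family 1 both measured genes were nearly level. Cyp1a2, a caffeine-oxidising enzyme of pericentral hepatocytes, stood at 249 FPKM in the Adipoq-/- library and 259 FPKM in the WT library. Cyp1a1, the classic AHR target that oxidises polycyclic hydrocarbons, stood at 8.64 FPKM in the Adipoq-/- library and 8.70 FPKM in the WT library. Their relative log2 ratios were 0.10 and 0.14. On FPKM as deposited and on either scaling to equal sums, which move all genes down together, both were negative but their median stayed above that of all genes. They are neighbours in the genome, and 5.07% of the 36-base windows of the Cyp1a1 transcript also occur in Cyp1a2.

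The Cyp2a genes and their cluster neighbour Cyp2f2 stayed at the all-gene median. Cyp2a5, the mouse coumarin hydroxylase, had 143 FPKM in the Adipoq-/- library and 161 FPKM in the WT library. Its close copy Cyp2a4, a testosterone hydroxylase, had 34.2 FPKM in the Adipoq-/- library and 38.7 FPKM in the WT library. Cyp2a12, which hydroxylates bile acids in mice, had 181 FPKM in the Adipoq-/- library and 197 FPKM in the WT library. The relative log2 ratios of these 3 genes lay between -0.02 and 0.03. Cyp2f2, known for activating naphthalene and for its periportal expression, had 401 FPKM in the Adipoq-/- library and 452 FPKM in the WT library, a relative log2 ratio of -0.02. Cyp2e1 was close as well, at -0.07.

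Cyp2b10, the best-known CAR target and strongly inducible by phenobarbital, was the member with the lowest ratio. It was rare in both libraries, with 0.693 FPKM in the Adipoq-/- library and 2.08 FPKM in the WT library. That is 0.333-fold on the deposited values and a relative log2 ratio of -0.71. With a pseudocount of 0.1 FPKM the ratio became -1.28, since the value of such a rare gene depends on the pseudocount. It falls under a minimum of 5 FPKM, and at this level the number of reads behind each value is unknown. The 250 bases before its annotated start, from RefSeq on build GRCm38.p6 (chr7:25897408-25897657, plus strand), are shown in full because this gene is the lower call. They hold neither of the elements marked in the sequences of the other genes.
Cyp2b10: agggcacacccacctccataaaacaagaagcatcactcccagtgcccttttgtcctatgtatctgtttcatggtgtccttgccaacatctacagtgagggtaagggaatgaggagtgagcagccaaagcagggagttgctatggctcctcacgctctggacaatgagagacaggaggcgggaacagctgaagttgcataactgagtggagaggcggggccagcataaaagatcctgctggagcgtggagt

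Cyp2c, with 12 members the largest subfamily, was divided. Of its members, 8 were under the all-gene median and 4 above it, and the subfamily median was -0.19. The sum over Cyp2c was 2066 FPKM in the Adipoq-/- library and 2292 FPKM in the WT library, or 0.901-fold.

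Cyp2c70, which converts chenodeoxycholic acid to the muricholic acids typical of mouse bile, had 406 FPKM in the Adipoq-/- library and 258 FPKM in the WT library. It was 1.58-fold higher on the deposited values, with a relative log2 ratio of 0.81, and moved to rank 5 of 42 in the Adipoq-/- library, against rank 11 in the WT library. Its ratio stayed positive under the scalings run, which lower all genes together, but was 0.49, short of 1.5-fold, after scaling to equal sums. None of its 36-base transcript windows occurs in another gene. The central 95% of ratios for genes averaging 10 FPKM or more spanned -0.54 to 0.82, and that span holds Cyp2c70 and the other 36 members at that level. Of the bile acid genes outside the family, Cyp7b1 was also higher, at 122 FPKM in the Adipoq-/- library and 74.3 FPKM in the WT library. Cyp8b1 was lower, at 69.4 FPKM in the Adipoq-/- library and 129 FPKM in the WT library. Cyp27a1 (-0.36) and Cyp7a1 (-0.19) also lay below the all-gene median, and Cyp39a1 (0.05) lay slightly above it.

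The other members above the all-gene median were Cyp2c40, Cyp2c67 and Cyp2c68, which lie next to each other in the Cyp2c cluster. Cyp2c40, which makes hydroxylated arachidonic acid, had 71.8 FPKM in the Adipoq-/- library and 67.6 FPKM in the WT library. Cyp2c68 had 111 FPKM in the Adipoq-/- library and 97.8 FPKM in the WT library, and Cyp2c67 had 105 FPKM in the Adipoq-/- library and 108 FPKM in the WT library. Their relative log2 ratios were 0.24, 0.34 and 0.11, and after scaling to equal sums Cyp2c40 and Cyp2c67 turned negative, Cyp2c67 also on FPKM as deposited and with equal sums without Mup genes. They share much sequence, and 48.7% of the windows of Cyp2c40 also occur in Cyp2c67 and 46.0% in Cyp2c68, so their separate values are uncertain.

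The lower Cyp2c members formed neighbouring sets on both sides of these genes. Cyp2c37, Cyp2c54 and Cyp2c50, known in mouse for epoxidising linoleic and arachidonic acid, had relative log2 ratios between -0.22 and -0.16. Cyp2c50 stood at 300.5 FPKM in the Adipoq-/- library and 390.1 FPKM in the WT library. Cyp2c54 stood at 192 FPKM in the Adipoq-/- library and 238 FPKM in the WT library. Cyp2c37 stood at 130.4 FPKM in the Adipoq-/- library and 169 FPKM in the WT library. The set was 0.782-fold in summed FPKM, on deposited values.

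On the other side, Cyp2c29, Cyp2c39 and Cyp2c38 had relative log2 ratios of -0.21, -0.50 and -0.38. Cyp2c39, an epoxygenase that also oxidises retinoic acid, had 12.7 FPKM in the Adipoq-/- library and 20.5 FPKM in the WT library. Cyp2c38 had 12.7 FPKM in the Adipoq-/- library and 18.7 FPKM in the WT library. These 2 rare genes thus had lower ratios than their abundant neighbour Cyp2c29. Cyp2c55, which hydroxylates arachidonic acid and is expressed in the intestine too, was at -0.38 with 4.98 FPKM in the Adipoq-/- library and 7.64 FPKM in the WT library. Cyp2c44, an epoxygenase that lies apart from the cluster, was at -0.16 with 100.4 FPKM in the Adipoq-/- library and 125 FPKM in the WT library.

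Upstream sequence was available from RefSeq (build GRCm38.p6) for 36 of 42 members, 10 of them Cyp2c genes, and the 250 bases before the annotated start were searched on both strands. CAAAGTCCA, an element typical of hepatocyte nuclear factor HNF4A, occurred in 8 of 36 member windows (22.2%) and in 0.381% of 27025 windows of all genes. The 4 Cyp2c windows that held it were those of Cyp2c40, Cyp2c67, Cyp2c68 and Cyp2c70, the same genes that lay above the all-gene median, while none of the other 6 Cyp2c windows held it. This overlap was seen after the values were known, and it did not extend to Cyp3a, where 4 genes below the median held the element too. AGGTCA, a half-site of nuclear receptors, occurred in 10 of 36 member windows (27.8%) and in 13.8% of all windows. The STAT5-type element TTCNNNGAA occurred in none of the 36 windows and in 7.18% of all windows. GCGTG, the core of the AHR element, occurred in 4 of 36 member windows and in 28.2% of all windows. A match is only a match of letters, and copies of a duplicated gene share their upstream sequence, so members are not independent here.

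The windows of Cyp2c29 (below the median; chr19:39286835-39287084, plus strand), Cyp2c40 (above it; chr19:39812815-39813064, minus strand) and Cyp2c70 (the higher call; chr19:40187287-40187536, minus strand) are given 5′ to 3′, with CAAAGTCCA and AGGTCA on either strand in capitals. No match of one overlapped a match of the other.
Cyp2c29: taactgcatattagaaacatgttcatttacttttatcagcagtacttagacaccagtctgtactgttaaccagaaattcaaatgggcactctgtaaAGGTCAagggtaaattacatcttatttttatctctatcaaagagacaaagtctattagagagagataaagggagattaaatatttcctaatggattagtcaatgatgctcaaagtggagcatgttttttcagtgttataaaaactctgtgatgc
Cyp2c40: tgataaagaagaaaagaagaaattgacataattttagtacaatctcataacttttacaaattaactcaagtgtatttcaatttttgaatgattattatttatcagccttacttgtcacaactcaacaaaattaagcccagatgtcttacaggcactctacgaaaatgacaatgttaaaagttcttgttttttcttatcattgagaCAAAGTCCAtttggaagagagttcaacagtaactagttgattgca
Cyp2c70: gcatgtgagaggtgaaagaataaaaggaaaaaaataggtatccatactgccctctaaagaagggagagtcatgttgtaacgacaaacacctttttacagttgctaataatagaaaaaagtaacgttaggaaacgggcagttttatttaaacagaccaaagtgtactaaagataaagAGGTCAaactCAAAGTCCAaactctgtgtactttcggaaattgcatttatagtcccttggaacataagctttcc

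Cyp2d genes, relatives of the human drug-metabolising enzyme CYP2D6, were nearly level as a sum on deposited FPKM, at 1658 FPKM in the Adipoq-/- library and 1674 FPKM in the WT library (0.991-fold). Their median relative log2 ratio was 0.15, and 6 of 8 lay above the all-gene median, but on FPKM as deposited 4 were higher and 4 lower, and after scaling to equal sums 7 of 8 were lower. Most Cyp2d genes averaged over 100 FPKM, and all genes averaging 100 FPKM or more had a higher median, 0.26. Cyp2d40 had the second highest ratio of the family (0.52), with 133 FPKM in the Adipoq-/- library and 103 FPKM in the WT library, and its ratio was 0.35 after length correction. Its annotated transcript, at 1163 bases, was the shortest among the members. Cyp2d9, as given above, was 1.01-fold on deposited values. Cyp2d10 and Cyp2d26, also abundant, differed little. Cyp2d10 had 289 FPKM in the Adipoq-/- library and 293 FPKM in the WT library, and Cyp2d26 had 303 FPKM in the Adipoq-/- library and 339 FPKM in the WT library. The lowest of the subfamily was Cyp2d22 (-0.11), often taken as the closest mouse counterpart of CYP2D6, with 68.1 FPKM in the Adipoq-/- library and 81.5 FPKM in the WT library. The other 3 lay above the all-gene median, between 0.11 and 0.23. Cyp2d12 had 145 FPKM in the Adipoq-/- library and 139 FPKM in the WT library. Cyp2d11 had 102 FPKM in the Adipoq-/- library and 105 FPKM in the WT library. Cyp2d34 had 19.5 FPKM in the Adipoq-/- library and 18.4 FPKM in the WT library. Sequence is shared here as well, with 33.0% of the windows of Cyp2d10 also found in Cyp2d11, so their separate values are uncertain.

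All 3 Cyp2j genes, which oxidise arachidonic acid, lay slightly below the all-gene median. Cyp2j5 had 181 FPKM in the Adipoq-/- library and 227 FPKM in the WT library, a relative log2 ratio of -0.17. Cyp2j6 had 11.8 FPKM in the Adipoq-/- library and 15.1 FPKM in the WT library, and Cyp2j9 had 1.05 FPKM in the Adipoq-/- library and 1.43 FPKM in the WT library. In a list of 11 members that oxidise arachidonic or linoleic acid, Cyp2c and Cyp2j genes together, 10 lay below the all-gene median, with a median of -0.18. Cyp2c40 was the exception. Cyp2c37 (-0.22), also below the all-gene median, was not in this list.

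Cyp2r1 and Cyp2u1 were each the only measured member of their subfamily. Cyp2r1, the liver enzyme that hydroxylates vitamin D, had 16.3 FPKM in the Adipoq-/- library and 15.5 FPKM in the WT library, a relative log2 ratio of 0.22. Cyp2u1, a fatty acid hydroxylase, had 3.87 FPKM in the Adipoq-/- library and 4.50 FPKM in the WT library, a relative log2 ratio of -0.02.

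Cyp3a genes all differed in the same direction. All 9 measured genes had lower FPKM in the Adipoq-/- library, with relative log2 ratios from -0.50 to -0.27 and a median of -0.30. None reached 1.5-fold on this centred scale, whereas on FPKM as deposited Cyp3a25 (-0.60) and Cyp3a59 (-0.65) did, and with equal sums the subfamily ranged from -0.81 to -0.58, across the 1.5-fold line. The subfamily summed to 2543 FPKM in the Adipoq-/- library and 3506 FPKM in the WT library, 0.725-fold on deposited values. It thereby held 0.285% of all FPKM in the Adipoq-/- library and 0.439% in the WT library.

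Within Cyp3a, Cyp3a11, Cyp3a16, Cyp3a41a, Cyp3a41b and Cyp3a44 had relative log2 ratios within a narrow range, from -0.30 to -0.27. Besides Cyp3a11, they are genes of female or fetal mouse liver that hydroxylate steroids. Cyp3a44 had 170.1 FPKM in the Adipoq-/- library and 229 FPKM in the WT library. Cyp3a16 had 123 FPKM in the Adipoq-/- library and 168 FPKM in the WT library. For Cyp3a41a the values were 119.8 FPKM in the Adipoq-/- library and 164 FPKM in the WT library, and for Cyp3a41b they were 109 FPKM in the Adipoq-/- library and 149 FPKM in the WT library. Cyp3a13, a steroid and drug hydroxylase that lies apart from the cluster, had 24.6 FPKM in the Adipoq-/- library and 33.4 FPKM in the WT library, a relative log2 ratio of -0.27.

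Cyp3a25, Cyp3a57 and Cyp3a59 were lower and more spread, at -0.45, -0.37 and -0.50. After length correction the nearest genes of both sets were close, Cyp3a57 at -0.36 and Cyp3a16 at -0.32. Cyp3a25 had 219 FPKM in the Adipoq-/- library and 333 FPKM in the WT library. Cyp3a59 had 49.4 FPKM in the Adipoq-/- library and 78.2 FPKM in the WT library. Cyp3a57 had 15.4 FPKM in the Adipoq-/- library and 22.5 FPKM in the WT library. As a set they were 0.653-fold in summed FPKM, against 0.736-fold for the Cyp3a11 set, on deposited values. These sets were drawn after the values were seen, and no test of the difference between them was possible.

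The sets were also grouped by upstream sequence, so their likeness there is a description and no check on them. They were more alike within than between, with little margin for Cyp3a11 itself. Over the 250 bases before the start, the 5 genes of the Cyp3a11 set were 81.7% to 99.6% identical to each other in 10 pairs. The 3 genes of the Cyp3a25 set were 90.3% to 95.6% identical. Between the sets, identity in the aligned bases was 73.6% to 81.0%. Cyp3a13, which is in neither set, had 72.0% to 76.4% identity to the Cyp3a11 set and 74.9% to 79.8% to the Cyp3a25 set, and these ranges overlap. CAAAGTCCA occurred in Cyp3a11, Cyp3a16, Cyp3a41a and Cyp3a41b and in none of the Cyp3a25 set. The windows of Cyp3a25 and Cyp3a59 each held 2 copies of AGGTCA, 1 on each strand. To show both kinds of sequence, 1 pair from each set is given 5′ to 3′ with CAAAGTCCA and AGGTCA on either strand in capitals, for Cyp3a11 (chr5:145879855-145880104, minus strand), Cyp3a41a (chr5:145720137-145720386, minus strand), Cyp3a25 (chr5:146009619-146009868, minus strand) and Cyp3a59 (chr5:146079008-146079257, plus strand).
Cyp3a11: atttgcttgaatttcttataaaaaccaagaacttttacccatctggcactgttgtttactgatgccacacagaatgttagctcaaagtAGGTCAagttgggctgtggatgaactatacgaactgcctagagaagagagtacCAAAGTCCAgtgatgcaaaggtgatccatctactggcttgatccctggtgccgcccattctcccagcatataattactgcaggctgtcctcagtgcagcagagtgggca
Cyp3a41a: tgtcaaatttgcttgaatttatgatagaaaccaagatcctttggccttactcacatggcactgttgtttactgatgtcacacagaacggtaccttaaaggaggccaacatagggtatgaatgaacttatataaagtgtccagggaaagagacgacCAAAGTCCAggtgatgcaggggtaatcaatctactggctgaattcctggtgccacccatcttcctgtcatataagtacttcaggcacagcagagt
Cyp3a25: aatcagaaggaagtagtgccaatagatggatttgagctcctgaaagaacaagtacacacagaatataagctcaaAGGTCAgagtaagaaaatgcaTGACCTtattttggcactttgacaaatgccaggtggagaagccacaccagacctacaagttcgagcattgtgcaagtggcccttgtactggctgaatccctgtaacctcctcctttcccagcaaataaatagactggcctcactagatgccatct
Cyp3a59: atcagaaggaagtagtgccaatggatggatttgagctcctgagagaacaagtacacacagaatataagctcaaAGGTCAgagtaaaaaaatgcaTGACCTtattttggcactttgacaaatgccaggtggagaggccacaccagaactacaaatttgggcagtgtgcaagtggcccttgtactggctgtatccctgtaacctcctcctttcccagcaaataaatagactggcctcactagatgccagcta

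Transcript sequence limits how far these genes can be read as separate measurements. Of the 36-base windows of each member's longest coding transcript in GENCODE, over 40% occurred in another gene for 15 of 42 members. Cyp3a41a and Cyp3a41b were nearly the same, with 95.3% of the windows of Cyp3a41a found in Cyp3a41b. Cyp3a25 shared 37.4% of its windows with Cyp3a59, and Cyp3a11 shared 13.3% with Cyp3a41a. How the authors treated reads that match several genes is unknown, so the values of such genes are uncertain as single measurements. Cyp3a13 shared no window with another gene, and its ratio of -0.27 lay at the upper end of the subfamily.

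**Figure D4:**
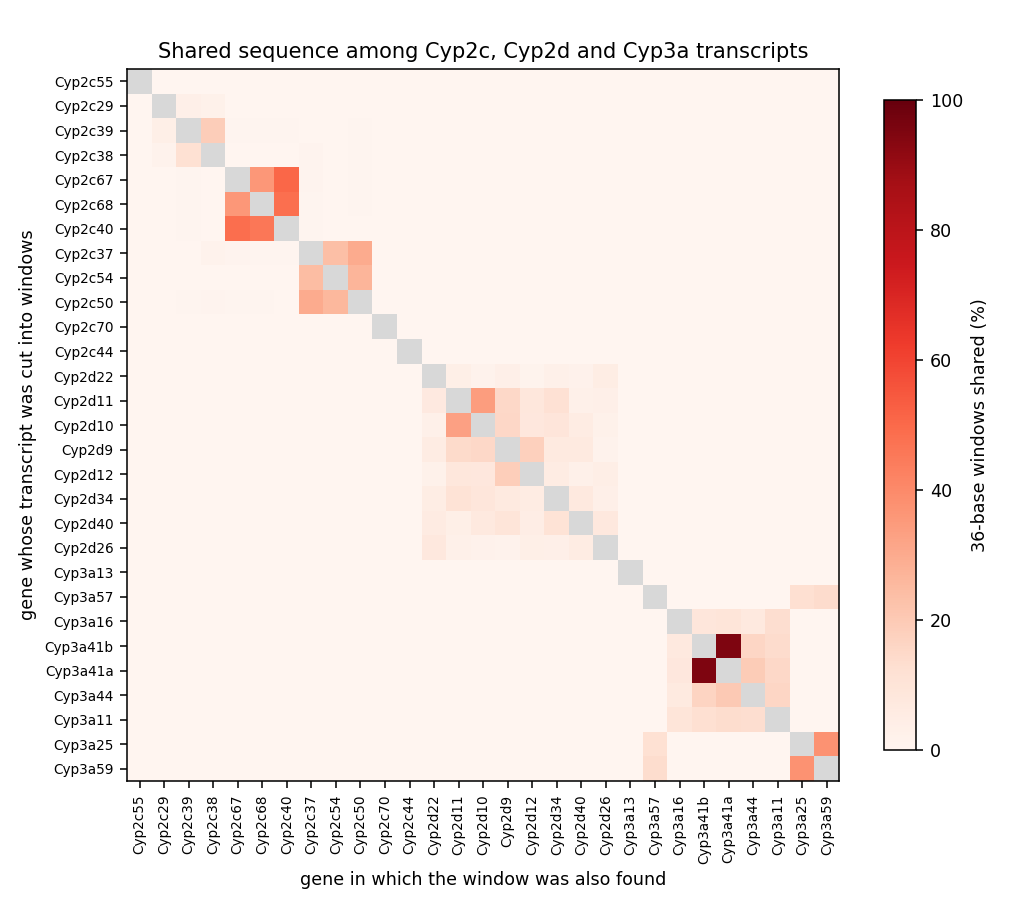
Share of the 36-base windows of each Cyp2c, Cyp2d and Cyp3a transcript (rows) that also occur in another member (columns), in percent, with genes in their order along the genome and the diagonal in grey. Blocks appear for Cyp2c67, Cyp2c68 and Cyp2c40 (48.7% of Cyp2c40 windows found in Cyp2c67) and for Cyp3a41a and Cyp3a41b (95.3%), while Cyp2c70 and Cyp3a13 share none.

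Growth hormone sets the sex difference of several members. Of 8 measured members known to be higher in female mouse liver, 7 were under the all-gene median, with a median of -0.30, and 4 of the 8 were Cyp3a genes. These 4 had ratios close to that of the abundant Cyp3a11 (-0.29) and share transcript sequence with it. Cyp3a41a also shares 95.3% of its windows with Cyp3a41b, so that pair does not give separate measurements. Of the others among the 4, Cyp3a16 shares 22.5% and Cyp3a44 41.8% of its windows with other genes, so their values are separate only in part. Both pools were male, and how far reads of Cyp3a11 entered the values of these 4 genes is unknown. The male-typical Cyp2d9 had a relative log2 ratio of 0.16 and was level on deposited values. Among 13 measured regulators of this axis, 9 lay below the all-gene median, with a median of -0.18. Past 1.5-fold, 2 were lower (2.61% of all genes) and none was higher (6.73%). The growth hormone feedback inhibitor Cish had 3.71 FPKM in the Adipoq-/- library and 9.25 FPKM in the WT library. The signal transducer Stat5a had 1.69 FPKM in the Adipoq-/- library and 3.93 FPKM in the WT library. Stat5b (-0.22), Socs2 (-0.18) and Jak2 (-0.14) lay nearer the all-gene median, and the receptor gene Ghr was above it (0.15). The repressor Bcl6, which favours the male pattern, had 5.51 FPKM in the Adipoq-/- library and 4.39 FPKM in the WT library. Igf1, the main growth hormone target in liver, had 666 FPKM in the Adipoq-/- library and 546 FPKM in the WT library. The last 2 did not reach 1.5-fold, with relative log2 ratios of 0.42 and 0.44.

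Pericentral and periportal genes were set beside each other because several abundant members, Cyp2e1 and Cyp3a11 among them, are pericentral. Of 8 pericentral members, 7 were under the all-gene median, with a median of -0.18. Outside the family, 11 of 15 pericentral genes were, with a median of -0.20, and none was past 1.5-fold in either direction (9.34% of all genes). The lowest of these were the receptor gene Nr1i3, the retinal dehydrogenase Aldh1a1 (350.4 FPKM in the Adipoq-/- library and 559 FPKM in the WT library) and the ornithine aminotransferase Oat (173 FPKM in the Adipoq-/- library and 262 FPKM in the WT library). The highest were Lect2 (0.45), with 196 FPKM in the Adipoq-/- library and 159 FPKM in the WT library, and Slc1a2 (0.25). Nr1i3, Ahr, Aldh1a1 and Gstm3 in this list also belong to the receptor or the CAR and PXR target lists below, so the lists overlap. Glutamine synthetase (Glul), restricted to the innermost pericentral cells, had 198 FPKM in the Adipoq-/- library and 216 FPKM in the WT library. It was named after its value was seen. Among 13 periportal genes outside the family, 7 lay below the all-gene median, with a median of -0.01. Past 1.5-fold, 1 was lower, Agxt2l1 (-0.72), against 2.61% of all genes. The gluconeogenic enzyme Pck1 (0.59) was the 1 higher gene, against 6.73% of all genes.

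The genes of the receptors CAR, PXR and AHR were lower in FPKM as deposited, as were 66.9% of all genes. Whether their levels bear on the P450 values was not tested. Nr1i3, which encodes CAR, had 26.1 FPKM in the Adipoq-/- library and 43.2 FPKM in the WT library, a relative log2 ratio of -0.55 short of the 1.5-fold line. Nr1i2, which encodes PXR, had 11.0 FPKM in the Adipoq-/- library and 14.2 FPKM in the WT library (-0.18). Ahr had 1.86 FPKM in the Adipoq-/- library and 2.80 FPKM in the WT library (-0.26). Of 23 measured receptors and partners, 21 were under the all-gene median, with a median of -0.15. None was past 1.5-fold, against 9.34% of all genes in either direction.

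Targets of the same receptors outside the P450 family had a lower median than the family, a difference with no test. Of 22 measured CAR and PXR targets, 19 were under the all-gene median and 4 were lower past 1.5-fold (2.61% of all genes), with a median of -0.39. The glutathione transferase Gsta2 had 15.4 FPKM in the Adipoq-/- library and 33.4 FPKM in the WT library, and its relative Gsta1 had 7.04 FPKM in the Adipoq-/- library and 15.0 FPKM in the WT library. The organic anion transporter Slco1a4 had 7.74 FPKM in the Adipoq-/- library and 15.1 FPKM in the WT library. Of 5 measured AHR targets, 4 were under the all-gene median and 2 were lower past 1.5-fold (2.61% of all genes), Gsta1, which is also 1 of the 4 CAR and PXR targets, and the glucuronosyltransferase Ugt1a6a (71.9 FPKM in the Adipoq-/- library and 121 FPKM in the WT library), while Cyp1a1 and Cyp1a2 were level.

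P450 enzymes depend on electron donors and heme, and these genes showed no common direction. Por, the reductase that passes electrons to all microsomal P450 enzymes, had 80.7 FPKM in the Adipoq-/- library and 104 FPKM in the WT library, a relative log2 ratio of -0.22. The gene of cytochrome b5, listed as Cyb5, had 1623 FPKM in the Adipoq-/- library and 1518 FPKM in the WT library (0.25). Alas1, the rate-limiting enzyme of heme synthesis, had 88.1 FPKM in the Adipoq-/- library and 90.8 FPKM in the WT library (0.11). Of all 20 genes in this list, 12 were under the all-gene median, with a median of -0.01. None was past 1.5-fold, against 9.34% of all genes in either direction. The lowest were heme oxygenase Hmox1 (-0.55) and the epoxide hydrolase Ephx1 (-0.44), which acts on products of P450 enzymes, and the highest was the heme synthesis gene Uros (0.48).

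The 21 P450 genes of other families that passed 1 FPKM had a median relative log2 ratio of -0.19, and 17 of them lay below the all-gene median. Of 12 Cyp4 genes passing 1 FPKM, which hydroxylate fatty acids at the chain end, 11 were under the all-gene median and 3 were lower past 1.5-fold, with a median of -0.28. In families 1 to 3, 1 of 42 was lower and the median was -0.10, and of all genes 2.61% were lower. Cyp4a14 had 15.2 FPKM in the Adipoq-/- library and 46.5 FPKM in the WT library, a relative log2 ratio of -1.40 that lay below the range of families 1 to 3, while Cyp7b1 (0.85) lay slightly above it. With 1 library per genotype the difference between the families was not tested.

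**Figure D5:**
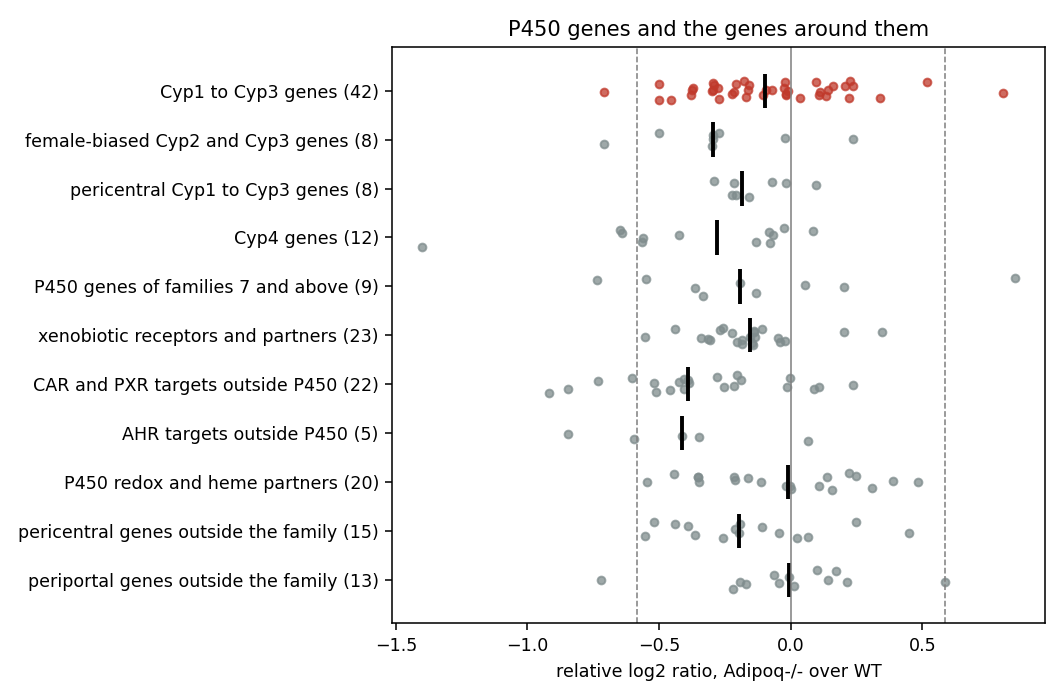
Relative log2 ratio (Adipoq-/- over WT) of the 42 members on top and of gene groups around them below, 1 point per gene, with the group median as a bar, the number of genes in brackets and dashed lines at 1.5-fold. The median is -0.10 for the members, -0.39 for CAR and PXR targets, -0.41 for AHR targets and -0.01 for redox and heme partners; values are after subtraction of the all-gene median.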

How the data were processed

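Liver RNA of Adipoq-/- and WT mice was sequenced as 1 library per genotype. The authors deposited FPKM, 1 value per gene symbol and library. TopHat and Cuffdiff were used with builds mm9 and NCBIM37, per the submitters' processing notes. Not given in the sources used here were versions, annotation and the handling of multiply matching reads. Both tables held the same 13352 rows, and for 26 symbols in 2 rows, none of them a member, only the higher of both was used. Ratios used a pseudocount of 1 FPKM and genes with at least 1 FPKM in 1 library, and were centred on the median of all genes. Groups came from the genotype label. No p-value is given. Calculations ran in Python 3.11.15 with pandas 2.3.3, and the calling of ratios was tested on simulated data. Length correction used a lowess curve (statsmodels 0.14.6) on GENCODE transcript lengths, matched for 96.2% of genes. Shared sequence was counted in 36-base windows, chosen since no source used here gives the read length. Upstream identity came from global pairwise alignment in Biopython 1.88, over aligned bases.

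The members and lists were chosen with earlier results of these data known. Full values were given for members of at least 100 FPKM, the 8 lowest and 8 highest ratios, Cyp1 and members past 1.5-fold, and of other lists for up to 3 genes at each end. Of 60 protein-coding genes that the symbol rule takes in GENCODE, 18 were not analysed here. Adipoq itself was not analysed here and gave no check of the genotype labels.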

Additional observations from a re-analysis of the deposited data

How the results depend on the processing

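The member median, -0.10 after subtraction of the all-gene median, was between -0.14 and -0.02 with a pseudocount of 0.1 or 0.5 FPKM, with the minimum dropped or raised to 5 FPKM, with length correction, summing per subfamily, the lower-mean row, and, chosen after seeing the data, without Cyp2e1 or with only 1 of Cyp3a41a and Cyp3a41b. Without centring it was -0.25, with equal sums -0.40, with equal sums without Mup genes -0.29 and with equal upper quartiles -0.19, while the all-gene median on those scales was -0.15, -0.28, -0.19 and -0.09. The log2 ratio of summed FPKM, -0.05 after centring on the all-gene median without a pseudocount (-0.18), was -0.23 without centring, -0.40 with equal sums, -0.28 with equal sums without Mup genes and -0.16 with equal upper quartiles. The count of 1 lower member became 0 with a minimum of 5 FPKM, 4 without centring, 11 with equal sums and 4 with equal sums without Mup genes. The count of 1 higher member became 0 with equal sums and 0 when members were summed per subfamily. At 2-fold both counts were 0. These scalings move all genes down together, so a member below 0 keeps its sign under them by construction; Cyp2c68, Cyp2c70 and Cyp2d40 stayed above 0 under all of these pseudocount, minimum, scaling and length settings. No paired analysis was possible because each genotype has 1 library. No replicate could be left out for the same reason. Read depth is unknown, so counting error could not be given, and it bears most on members under 10 FPKM such as Cyp2b10.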

Other observations

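The pseudogene Cyp2d37-ps, left out by the symbol rule, was listed at 13.1 FPKM in the Adipoq-/- library and 22.1 FPKM in the WT library, a relative log2 ratio of -0.56. No Cyp2d member had a ratio that low, the lowest being -0.11 for Cyp2d22.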
